A study of Mus musculus with 12 samples.

Results

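Ikaros-deficient Treg taken directly ex vivo were compared with WT Treg by ATAC-seq, and the regions of open chromatin that differed were described across the genome, beyond the loci usually discussed for Ikaros. Treg were sorted as YFP+ cells from the spleen (as labelled, while the methods on Treg purification name spleen and lymph nodes) of Foxp3-YFP-Cre mice (WT) and of mice with floxed Ikzf1, Ikzf1-fl-Foxp3-YFP-Cre, called Ikzf1-cko, with 3 unstimulated libraries of 100000 cells in each group. Both groups carry the Cre recombinase and YFP, which are expressed from the Foxp3 locus, so that Ikzf1 is deleted in cells that express Foxp3 and the WT cells differ from them by the floxed alleles. The age of the mice and whether the 3 libraries of a group came from separate animals are not given in the sources used here, and p-values therefore measure the spread between libraries. A further 6 libraries, 3 of each genotype, were stimulated for 4 hr with anti-CD3 and anti-CD28 and were used here as a second look at the regions found ex vivo. Of 118680 open chromatin regions in the series, 38602 had a CPM (the count scaled by the total count of the library) of at least 3.6 in all 6 ex vivo libraries and were tested. The filter left out 5674 regions that reached 3.6 CPM in all 3 WT libraries but not in all 3 Ikzf1-cko libraries, and 2790 with the opposite pattern, so that a region open in 1 genotype alone is not among those tested.

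Ikaros, the product of Ikzf1, is a zinc finger protein that binds a short DNA core and brings chromatin remodelling complexes such as NuRD to lymphocyte genes, where it can repress or activate. Treg depend on the transcription factor Foxp3 for their identity, and within the Treg pool resting cells that recirculate through lymphoid organs are distinguished from effector cells that carry markers such as Klrg1, Tigit and Il10. In ATAC-seq, Tn5 transposase inserts into accessible DNA, so the reads on a region rise with its openness, and factors of the AP-1, NFAT and NF-kB families, which act downstream of the T cell receptor, are among those that open lymphocyte enhancers.

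The counted reads ranged from 5197669 to 8596567 per WT library and from 11698967 to 15355521 per Ikzf1-cko library, so that every Ikzf1-cko library was deeper. The tested regions held 79.4 to 83.4% of the counts in WT and 83.4 to 86.2% in Ikzf1-cko libraries. Spearman correlations of region levels across the tested regions were 0.95 to 0.98 between libraries of a genotype and 0.90 to 0.93 between genotypes. By this measure every library was closer to its own genotype than to the other, which does not show departures at single regions. All 12 genes of a Treg marker list (Foxp3, Il2ra and Ctla4 among them) and all 12 of a T cell list had an open region within 1 kb of their start site. Their summed levels in FPKM (the CPM per kb of region, for the strongest start-site region of each gene in each library) were 361 to 403 in WT and 415 to 464 in Ikzf1-cko libraries for Treg markers, and 308 to 346 against 326 to 342 for T cell markers. Of 10 B cell markers, 6 had no region at the start site (Blk, Cd79a, Fcer2a, Ms4a1 and Pax5 among them), and the sum over the other 4 was 52.5 to 55.8 in WT and 35.1 to 40.5 in Ikzf1-cko libraries. For 8 markers of CD8 T and NK cells the sum over 4 with a region was 31.4 to 36.4 in WT and 19.8 to 24.5 in Ikzf1-cko libraries. Myeloid sums were 41.4 to 44.0 against 41.0 to 43.9, and erythroid sums 59.8 to 64.3 against 52.4 to 56.7. The B cell, the CD8 T and NK cell and the erythroid sums were thus lower in all 3 Ikzf1-cko libraries, and the Treg sum was higher in all 3. The part of these differences in the results below was not tested. The sources used here do not state which exon of Ikzf1 is floxed, so the reads on the 19 tested regions over Ikzf1 do not check the genotype labels, and 0 of these regions passed both thresholds used here (edgeR).

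At a false discovery rate (FDR) below 0.05 (edgeR's quasi-likelihood test, Benjamini-Hochberg over every tested region) and a change of more than 2-fold, 181 regions were higher (0.469% of those tested) and 222 were lower (0.575%) in Ikzf1-cko than in WT Treg. The libraries of the genotypes did not overlap in 402 of these 403 regions. Over all tested regions, the groups did not overlap in 22.6% with higher and 16.9% with lower levels in Ikzf1-cko. FDR alone called many more regions, 5643 higher (14.6%) and 4411 lower (11.4%), and most of these changes were small. Among regions past FDR alone but under 2-fold, the median log2 fold change was 0.41 for those that rose and -0.53 for those that fell. Without WT replicate 2 the count past FDR alone dropped from 10054 to 6500, and without Ikzf1-cko replicate 2 to 6427. The balance of directions depended on the scaling: with TMM factors in place of library totals, 145 regions were called higher and 283 lower. When regions were added up by gene (the nearest protein-coding start site within 50 kb), 137 of 13403 genes were higher by over 1.5-fold (1.02%) and 235 were lower (1.75%), and with TMM factors these counts were 108 and 343.

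**Figure D1:**
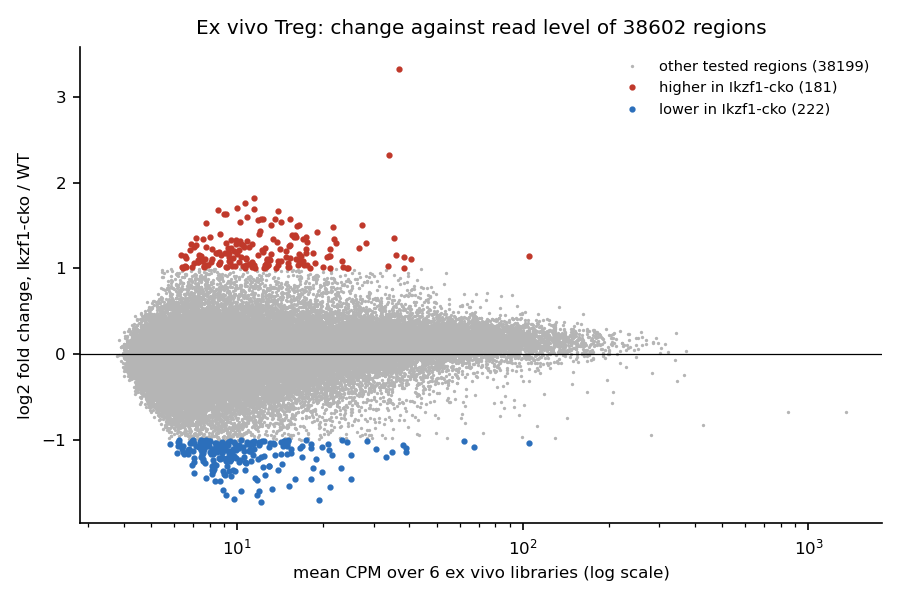
Log2 fold change of each of the 38602 tested regions (Ikzf1-cko over WT, 3 libraries each, vertical axis) against its mean CPM over the 6 ex vivo libraries (horizontal axis, log scale), with the 181 regions called higher in red and the 222 called lower in blue. The called regions sit mostly at low to middle levels, and the cloud of the strongest regions lies slightly above 0.

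The regions called in either direction lay away from gene starts. Only 27 of the 181 higher (14.9%) and 16 of the 222 lower regions (7.21%) were within 1 kb of a protein-coding start site, where 34.4% of all tested regions lie. The median distance to the nearest start site was 20.9 kb for higher, 27.5 kb for lower and 7.49 kb for all tested regions. Introns held 79 higher and 88 lower regions of 10770 tested. In exons 34 of 2560 regions were lower (1.33%) and 9 higher (0.352%), and intergenic regions more than 50 kb from a start site had 43 of 4123 lower (1.04%) and 24 higher (0.582%).

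Start sites themselves moved by small amounts and mainly upward. Of 13270 start-site regions, 2425 rose and 612 fell at FDR alone, with a median log2 fold change of 0.10 against 0.03 over all tested regions. Far intergenic regions had 474 rises and 825 falls and a median of -0.08. Start-site regions held 44.8 to 47.7% of the counts in the 3 WT and 49.8 to 50.4% in the 3 Ikzf1-cko libraries, without overlap (exact two-sided permutation test, p = 0.1, the smallest that 3 against 3 libraries allow, and 0.25 after adjustment over 5 position classes). The same drift followed the level of the region: among 5 equal bins of regions, the bin with the lowest mean CPM had a median of -0.09 and the bin with the highest 0.14. Within the highest bin, start sites had 1729 rises and 71 falls of 5697 regions and far intergenic regions 91 and 51 of 382. In each of the 5 bins the start-site median was above the far intergenic one, from -0.07 against -0.11 in the lowest to 0.15 against 0.04 in the highest. With a loess normalization against abundance, the start-site median came to 0.0164 and the far intergenic one to -0.0587. Medians over 5 bins of GC content ran from -0.05 at the lowest to 0.10 at the highest, and a correction for GC content brought the start-site median to 0.04. Chromosomes 3 and 11 had more falls than rises at FDR alone, with 323 against 261 of 2095 regions on chromosome 3 and 299 against 156 of 2288 on chromosome 11, which carries Ikzf1. Beyond 5 Mb of Ikzf1 and without the Sfi1 locus described below, chromosome 11 had 237 falls (10.8%) and 155 rises (7.09%) of 2186 regions. There the share of falls was slightly below the 11.4% of all tested regions, and the share of rises was well below their 14.6%. The balance toward falls in this part thus came with few rises, not with an excess of falls. Of the 57 tested regions within 5 Mb of Ikzf1, 21 fell and 1 rose at FDR alone.

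The sequence under the called regions differed between the directions, and 6 of them are shown in part. Each is the central 300 bases of a region on the forward strand of mm9, read from the reference genome, with matches on either strand in capitals to the Ikaros core (GGGAA), AP-1 (TGANTCA), NF-kB (GGGANTTTC), NFAT (TGGAAA) and TCF/LEF (CTTTGAT) motifs. The NF-kB letters can overlap those of the Ikaros core and of NFAT. They are examples picked to show such matches or their absence, and the rises near Smad4 and Nfatc1, which are among the 5 largest and whose windows hold no Ikaros core, are not printed. The first is the intronic Cd82 region at chr2:93296808-93297107, from the gene with most risen regions, the second the intronic Pla1a region at chr16:38406938-38407237, with a pair of Ikaros cores, and the third the intergenic region upstream of Nfe2l2 at chr2:75601146-75601445, with a match to NF-kB. The last 3 fell: the intronic Rras2 region at chr7:121237206-121237505 and the region upstream of Abl2 at chr1:158450946-158451245 hold none of these letters, and the intronic Gtf2i region at chr5:134729400-134729699 holds 1 Ikaros core.
Cd82: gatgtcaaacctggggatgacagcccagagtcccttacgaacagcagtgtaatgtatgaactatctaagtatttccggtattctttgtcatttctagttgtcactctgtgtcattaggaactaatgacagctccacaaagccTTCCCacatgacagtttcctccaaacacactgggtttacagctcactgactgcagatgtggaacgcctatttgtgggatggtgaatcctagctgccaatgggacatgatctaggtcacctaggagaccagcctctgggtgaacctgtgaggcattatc
Pla1a: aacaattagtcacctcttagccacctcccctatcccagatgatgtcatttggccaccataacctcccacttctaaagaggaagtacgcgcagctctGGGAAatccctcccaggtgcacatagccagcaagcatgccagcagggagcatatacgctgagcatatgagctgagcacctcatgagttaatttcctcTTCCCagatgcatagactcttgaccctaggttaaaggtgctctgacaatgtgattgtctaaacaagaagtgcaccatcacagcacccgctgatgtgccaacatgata
Nfe2l2: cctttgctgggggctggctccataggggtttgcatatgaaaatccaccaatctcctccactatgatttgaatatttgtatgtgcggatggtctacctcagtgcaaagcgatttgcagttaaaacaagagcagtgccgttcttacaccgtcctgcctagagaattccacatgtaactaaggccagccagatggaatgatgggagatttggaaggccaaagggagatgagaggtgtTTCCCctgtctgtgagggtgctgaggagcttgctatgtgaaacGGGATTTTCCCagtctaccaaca
Rras2: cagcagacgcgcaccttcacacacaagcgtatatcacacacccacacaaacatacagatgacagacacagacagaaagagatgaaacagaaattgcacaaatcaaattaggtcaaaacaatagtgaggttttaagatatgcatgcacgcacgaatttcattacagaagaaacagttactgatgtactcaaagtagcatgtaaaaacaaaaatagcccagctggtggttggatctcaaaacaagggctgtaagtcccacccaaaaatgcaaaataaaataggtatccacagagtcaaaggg
Abl2: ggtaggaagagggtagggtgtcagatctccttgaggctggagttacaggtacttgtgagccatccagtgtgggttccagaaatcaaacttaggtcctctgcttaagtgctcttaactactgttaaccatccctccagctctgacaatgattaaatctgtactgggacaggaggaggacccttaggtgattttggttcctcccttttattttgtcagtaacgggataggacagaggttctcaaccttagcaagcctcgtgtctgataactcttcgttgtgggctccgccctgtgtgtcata
Gtf2i: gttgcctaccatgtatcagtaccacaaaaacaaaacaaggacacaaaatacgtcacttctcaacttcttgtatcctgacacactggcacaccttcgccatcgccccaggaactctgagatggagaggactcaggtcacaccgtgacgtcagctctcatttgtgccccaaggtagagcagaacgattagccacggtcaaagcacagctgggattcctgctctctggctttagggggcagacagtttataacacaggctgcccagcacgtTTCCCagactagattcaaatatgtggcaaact
Over the 12 largest rises and the 12 largest falls described below, an Ikaros core was in the central window of 9 rises, not in those near Smad4, Nfatc1 and Ifitm3, and of 4 falls, near Gtf2i, Bri3, Flrt3 and P4ha2.

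Over all called regions, the same window held an Ikaros core in 128 of 181 that rose (70.7%, 95% exact binomial interval 63.5 to 77.2) and in 100 of 222 that fell (45.0%, 38.4 to 51.8), against 59.6% of all tested regions. These shares are counts of letters in equal windows, their intervals cover counting error only, and a match is not a bound site. AP-1 letters were in 31.5% of rises (24.8 to 38.8), 17.6% of falls (12.8 to 23.2) and 14.01% of all tested regions. NF-kB letters were in 17 of the rises (9.39%, 5.57 to 14.6) and in 2 of the falls (0.901%), against 1.84% of all.

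NFAT letters followed the same order, with 30.9% of rises (24.3 to 38.2), 13.96% of falls (9.69 to 19.2) and 20.9% of all, and the STAT letters TTCCNNGAA were in 9.94% of rises, 4.50% of falls and 4.41% of all. The letters of TCF/LEF, factors linked to the resting T cell state, showed the opposite order in this window, in 10.4% of falls (6.68 to 15.1), 5.52% of rises and 4.72% of all. Over whole regions that contrast between directions was mostly absent, with 20.3% of falls, 18.8% of rises and 12.2% of all. Letters of RUNX (TGTGGTT) were in 14.9% of falls (10.5 to 20.2), 9.94% of rises and 10.1% of all. KLF/SP letters (CCCCGCCC), common at start sites, were in 5.52% of rises, 2.70% of falls and 11.8% of all. Without start-site regions the contrast was similar for 2 of these motifs, with an Ikaros core in 68.8% of rises, 44.7% of falls and 58.7% of all, and NF-kB letters in 9.74%, 0.971% and 2.28%. For RUNX it was not, with 13.6% of falls against 13.3% of all regions away from start sites, whereas TCF/LEF letters remained at 10.7% of falls against 6.25%. Read the other way, of 577 regions away from start sites with NF-kB letters, 160 rose (27.7%) and 44 fell (7.63%) at FDR alone, against 3058 (12.4%) and 3755 (15.2%) of 24755 without them.

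**Figure D2:**
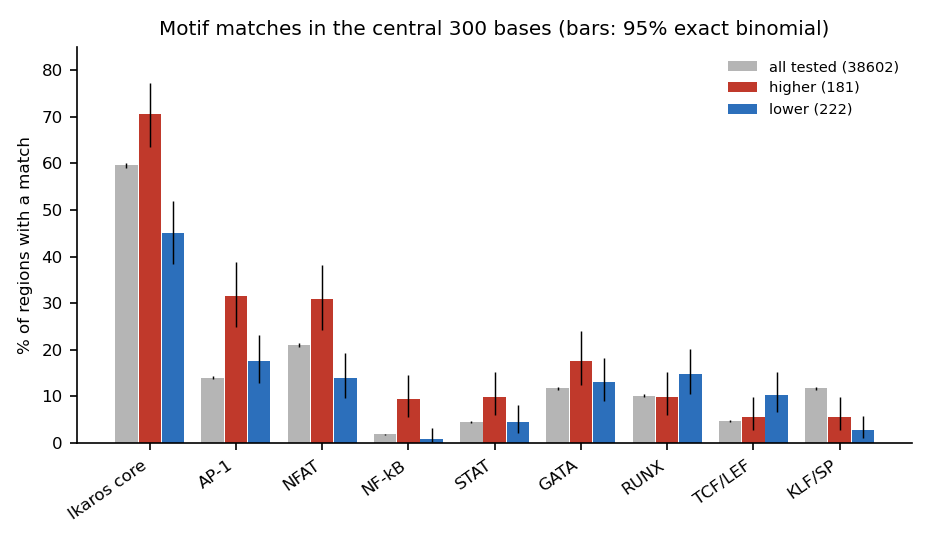
Percent of regions whose central 300 bases hold the letters of each motif on either strand (vertical axis), for all 38602 tested regions (grey), the 181 called higher (red) and the 222 called lower (blue), with 95% exact binomial intervals as bars. Ikaros core, AP-1, NFAT, NF-kB and STAT letters are most frequent in regions that rose, and TCF/LEF and RUNX letters in regions that fell, start sites included.

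The largest rise outside the mitochondrial matches described below lay on chromosome X in intergenic sequence, 88.9 kb from Tmsb4x, the gene of the actin-binding peptide thymosin beta-4 (chrX:163556962-163557887). Its level was 5.82, 5.15 and 5.40 FPKM in the WT libraries and 19.3, 20.01 and 18.5 FPKM in the Ikzf1-cko libraries. The groups were far apart and the spread within each was small, and the log2 fold change was 1.83 ± 0.15 (SE, FDR = 6.37e-10). A region 10.2 kb upstream of Eif2b2, a subunit of the translation initiation factor eIF2B, rose from 6.03, 5.99 and 4.99 to 18.1, 18.8 and 20.3 FPKM (1.76 ± 0.15, FDR = 2.10e-09). The intronic Pla1a region, in a gene for a phosphatidylserine-specific phospholipase, measured 12.9, 12.2 and 10.5 FPKM in WT and 39.6, 39.4 and 32.6 FPKM in Ikzf1-cko (1.67 ± 0.14, FDR = 1.24e-09). In both, the lowest Ikzf1-cko library was well above the highest WT library.

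An intron of Nfatc1, which encodes a calcium-regulated NFAT factor, held a region at 6.08, 7.94 and 6.19 FPKM in WT and 23.8, 21.5 and 19.8 FPKM in Ikzf1-cko (1.68 ± 0.17, FDR = 2.60e-08). In an intron of Smad4, the shared mediator of TGF-beta signals, the values were 7.45, 4.63 and 3.95 against 19.2, 20.5 and 9.12 FPKM (1.69 ± 0.23, FDR = 3.64e-06). The third Ikzf1-cko library was much lower than the other two at Smad4 and came close to the highest WT library. The region 58.0 kb upstream of Nfe2l2, the gene of the antioxidant regulator Nrf2, rose from 4.12, 3.66 and 4.04 to 11.4, 13.3 and 12.1 FPKM (1.64 ± 0.16, FDR = 1.75e-08). A region 48.4 kb upstream of Tnfsf11, which encodes the cytokine RANKL, went from 7.90, 7.88 and 6.41 to 21.3, 21.4 and 22.9 FPKM (1.58 ± 0.14, FDR = 1.80e-09). Both were tightly grouped within each genotype. The only start site among the 12 largest rises was at Akap13, an anchoring protein of signalling kinases, where a region 0.569 kb from an annotated start measured 11.4, 9.16 and 15.2 FPKM in WT and 38.9, 36.2 and 33.3 in Ikzf1-cko (1.58 ± 0.15, FDR = 1.57e-08). The others of the 12, with log2 fold changes of 1.58 to 1.64, were near Poc1b, Ifitm3, a membrane protein that restricts viruses, and over an exon of Lamb1, nearest to the start of Gm11053.

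**Figure D3:**
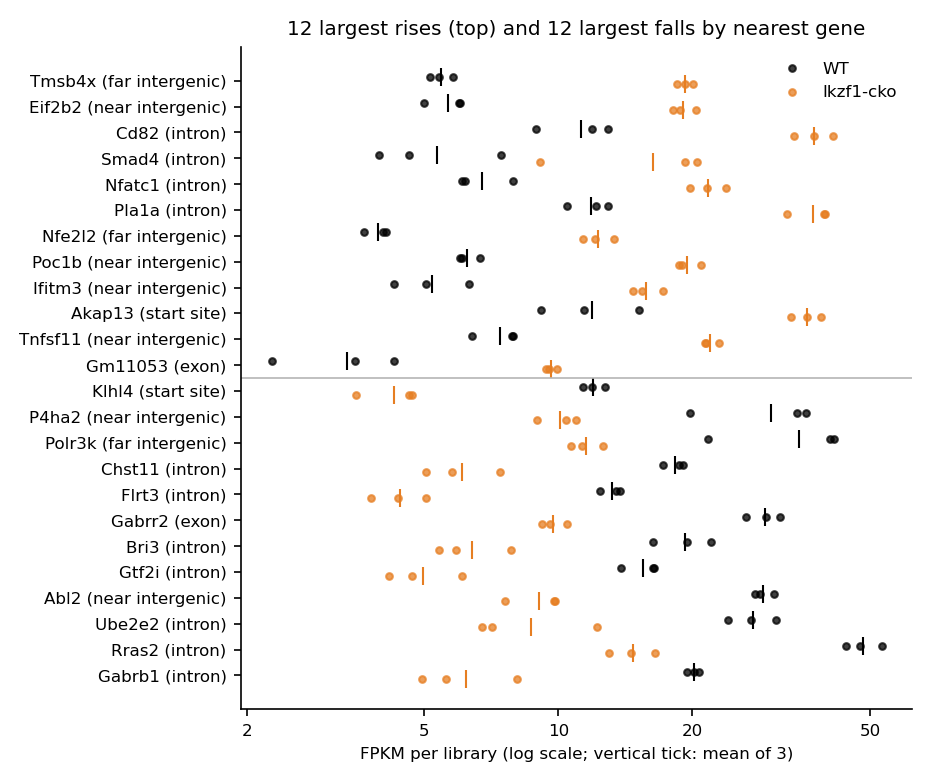
FPKM (horizontal axis, log scale) of the 12 largest rises (top) and the 12 largest falls (bottom) in each ex vivo library, with WT in black, Ikzf1-cko in orange and the mean of 3 as a vertical tick, labelled by the nearest gene and the position class. The libraries of the genotypes are apart in all 24 regions, as the choice of regions required, and the third Ikzf1-cko library at Smad4 (9.12 FPKM) lies nearest to the WT libraries.

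The largest fall lay in an intron of Gabrb1, which encodes a subunit of the GABA-A receptor, where the level was 19.4, 20.7 and 20.2 FPKM in WT and 4.95, 5.60 and 8.07 in Ikzf1-cko (-1.72 ± 0.15, FDR = 3.19e-09, chr5:72294473-72295393). In Rras2, a Ras-related GTPase, it was 53.1, 44.1 and 47.6 FPKM against 16.5, 13.0 and 14.6 (-1.70 ± 0.12, FDR = 8.63e-11). Rras2 was the most open of the 24 regions in WT, and its highest Ikzf1-cko library was far below its lowest WT library. The region 37.5 kb upstream of Abl2, an Abl family tyrosine kinase, fell from 30.4, 28.4 and 27.6 to 9.77, 9.85 and 7.58 FPKM (-1.65 ± 0.14, FDR = 1.80e-09), and the one in Gtf2i, a transcription factor gene, from 13.8, 16.4 and 16.3 to 6.07, 4.16 and 4.71 FPKM (-1.64 ± 0.16, FDR = 1.66e-08). In Ube2e2, an E2 ubiquitin-conjugating enzyme, the values were 27.1, 24.0 and 30.8 against 7.12, 6.73 and 12.2 FPKM (-1.69 ± 0.18, FDR = 5.60e-08). An intron of Chst11, a chondroitin sulfotransferase, had 18.7, 17.1 and 19.0 against 7.40, 5.78 and 5.06 FPKM (-1.57 ± 0.14, FDR = 4.08e-09). The start site of Klhl4 was the only one among the 12 falls, with 11.3, 11.9 and 12.7 FPKM in WT and 4.63, 4.69 and 3.52 in Ikzf1-cko (-1.48 ± 0.15, FDR = 5.25e-08). Near Polr3k and P4ha2 the WT libraries were uneven, with 41.5, 40.8 and 21.7 FPKM at Polr3k and 35.9, 34.4 and 19.7 at P4ha2. At both, WT replicate 3 was the lowest WT library, although still above all Ikzf1-cko libraries (10.7 to 12.6 FPKM at Polr3k and 8.95 to 10.95 at P4ha2). The remaining falls were near Bri3, Flrt3 (in an intron of Macrod2) and in an exon of Gabrr2, each at -1.59.

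Some genes gained openness over many regions. They were picked for the highest number of regions that rose at FDR alone, which favours genes with many tested regions. Over all tested regions 14.6% rose. Cd82, a tetraspanin of the cell surface, had the most risen regions, with 12 of its 17 tested regions higher and 0 lower at FDR alone, by 0.23 to 1.71 on the log2 scale. The strongest of these, the intronic region shown above, measured 8.92, 12.9 and 11.9 FPKM in WT and 37.5, 41.3 and 33.8 in Ikzf1-cko (1.71 ± 0.16, FDR = 1.09e-08). Another, 27.3 kb into the gene, had 36.9, 35.4 and 40.6 against 70.9, 71.9 and 75.8 FPKM (0.95 ± 0.08, FDR = 1.80e-09). Summed over its regions, Cd82 had 272, 267 and 279 CPM in WT and 370, 393 and 386 CPM in Ikzf1-cko (0.49 ± 0.07 in the test on gene sums). All 3 Ikzf1-cko sums were above all WT sums.

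Ets1, an ETS factor of lymphocytes, had 11 of 36 regions higher and 0 lower, by 0.30 to 0.77. Nfkb1, a subunit gene of NF-kB, had 9 of 25 higher and 0 lower, and Fyn, a Src family kinase downstream of the T cell receptor, 9 of 26 higher and 0 lower. In Nfkb1 the region with the smallest p measured 14.05, 17.0 and 18.7 FPKM in WT and 32.0, 30.2 and 24.3 in Ikzf1-cko (0.78 ± 0.13, FDR = 6.75e-05). In Fyn it was 10.6, 9.89 and 8.68 against 23.8, 23.3 and 20.2 FPKM (1.23 ± 0.16, FDR = 2.10e-06). The gene sums rose less than these single regions, with log2 fold changes of 0.29 ± 0.08 for Ets1, 0.28 ± 0.08 for Fyn and 0.26 ± 0.08 for Nfkb1. Akap13 had 10 of 31 regions higher and 1 lower, and Il10, the cytokine gene, 10 of 12 higher and 0 lower.

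The genes with falls over many regions were picked in the same way, and 11.4% of all tested regions fell. Sfi1, a centrosomal protein gene at the proximal end of chromosome 11, had 33 of 34 regions lower. Its summed level was 5231, 5811 and 4547 CPM in WT and 3589, 3795 and 3315 CPM in Ikzf1-cko (-0.54 ± 0.12). On chromosome 1 the neighbours Heatr7b1 and Hjurp had 17 of 18 and 9 of 10 regions lower, and the summed Heatr7b1 level was 262, 269 and 193 CPM against 138, 138 and 164 CPM (-0.71 ± 0.09). The Hjurp sum did not pass (-0.04 ± 0.07), and 1 region of Hjurp rose. Almost every region of these loci was lower, whereas at Cd82 5 of 17 regions did not pass. With at least 90% identity over at least 50% of their length, 2 of the 34 Sfi1 regions and 0 of those at Heatr7b1 and Hjurp matched another place in the genome, and whether reads of other loci were counted there was not tested. Dusp10, a phosphatase that inactivates MAP kinases, had 8 of 16 regions lower and 0 higher, with 55.1, 49.1 and 57.1 FPKM in WT against 30.7, 29.9 and 26.5 in Ikzf1-cko at an intronic region (-0.88 ± 0.11, FDR = 6.22e-07). Satb1, a chromatin organiser, had 8 of 13 lower and 0 higher, and 1700025G04Rik and Sh3bgrl2 had 7 of 12 and 7 of 9 lower and 0 higher. Fam134b had 7 of 19 lower and 2 higher, and its sum did not pass (-0.09 ± 0.07).

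The largest changes of gene sums are those of genes with 1 or 2 regions, and 258 of the 372 genes called had 1 tested region. The highest sums after Gm10222, whose 2 regions match the mitochondrial genome, were those of Gm11053, Eml6, Lrrc16a, Slc28a3 and Aldh8a1. The start site of Eml6, a microtubule-binding protein gene, had 9.94, 14.9 and 13.1 FPKM in WT and 34.1, 38.3 and 35.8 in Ikzf1-cko (1.48 ± 0.12, FDR = 6.77e-10), and that of Lrrc16a, which regulates actin capping, 9.49, 7.47 and 7.56 against 20.8, 21.9 and 22.1 FPKM (1.42 ± 0.12, FDR = 1.24e-09). Both start sites were low in WT, and the groups were far apart. At Gm10222 the summed level was 27.5, 14.3 and 14.7 CPM in WT and 113, 112 and 144 CPM in Ikzf1-cko. Where these reads came from was not tested, and they are set apart here. Without them and the regions near Ikzf1, 400 called regions were left. The largest summed falls were those of P4ha2, Klhl4, Cck (a region in an exon of Trak1), Kctd16, Lbp and Gm7120, between -1.53 and -1.21. At Kctd16 and Gm7120 WT replicate 3 was again the lowest WT library, with 16.9 CPM beside 35.4 and 27.6 at Kctd16.

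Near genes of effector and tissue Treg, rises outnumbered falls. Of 187 tested regions near 29 such genes, 58 rose (31.0%) and 11 fell (5.88%) at FDR alone, and the median log2 fold change was 0.17 against 0.03 over all tested regions. All 8 regions of this list past both thresholds were higher, at Il10, Nt5e, Maf, Tigit and Klrg1. The list was drawn up with such results known and gives no independent support. The study reports an expanded effector Treg pool and a smaller naive one in these mice. In bulk libraries, a shift in the mix of resting and effector cells and a change in openness per cell cannot be told apart. The part of the cell mix in these counts was not tested. The rises outnumbered the falls under every alternative tried, with 28 to 69 rises and 4 to 19 falls.

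At Il10, whose product is an anti-inflammatory cytokine, the region 16.1 kb upstream rose from 12.7, 16.9 and 18.5 to 40.2, 44.8 and 35.9 FPKM (1.30 ± 0.12, FDR = 1.00e-08). Tigit, an inhibitory receptor of effector Treg, had 8 of 16 regions higher and 0 lower. Its intronic region measured 20.5, 23.8 and 23.7 FPKM in WT and 56.2, 53.9 and 38.6 in Ikzf1-cko (1.13 ± 0.14, FDR = 1.07e-06), and a region 36.5 kb upstream 17.7, 15.7 and 19.1 against 42.6, 41.9 and 29.6 FPKM (1.13 ± 0.17, FDR = 1.02e-05). In both the third Ikzf1-cko library was the lowest of its group. Klrg1, a lectin-like receptor of terminally differentiated cells, had 3 of 5 regions past both thresholds. At the region 10.9 kb upstream of Klrg1 the values were 19.9, 22.7 and 23.1 in WT and 39.2, 54.9 and 48.4 FPKM in Ikzf1-cko (1.10 ± 0.13, FDR = 6.67e-07), and another Klrg1 region close by is uncertain because it matches 16 other places in the genome. A region 17.7 kb upstream of Nt5e, which encodes the adenosine-producing enzyme CD73, rose from 9.53, 8.93 and 8.48 to 22.5, 23.2 and 17.8 FPKM (1.25 ± 0.15, FDR = 4.93e-07). A region 34.7 kb upstream of Maf, a factor that promotes Il10 expression, rose from 11.4, 11.1 and 10.9 to 28.1, 23.9 and 22.5 FPKM (1.17 ± 0.14, FDR = 2.77e-07). For these genes the libraries of the genotypes were clearly apart.

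Members of the list differed. At FDR alone, 13 of the 29 genes had rises only, 6 had falls only, 3 had both and 7 had neither. Pdcd1 (8 of 11 regions higher), Rora (6 of 13), Tnfrsf9 (4 of 9), Gata3 (3 of 9) and Nfil3 (3 of 5) had rises and 0 falls. Gzmb had 2 of 3 regions lower, and Fgl2 2 of 7. For Ccr2, Il1rl1, Itgae, Havcr2, Lag3 and Pparg, 0 regions passed FDR (edgeR), and their gene sums differed by -0.28 to 0.09 on the log2 scale.

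Genes of resting and naive T cells showed the opposite balance, and here too the cell mix and openness per cell cannot be told apart. Of 244 regions near 27 genes, 18 rose (7.38%) and 59 fell (24.2%), with a median of -0.07, and 0 passed both thresholds. Falls outnumbered rises under every alternative, with 23 to 85 falls and 9 to 32 rises. Ccr7, the chemokine receptor for lymph node entry, had 6 of 18 regions lower and a summed level of 281 ± 1.03 CPM in WT (SD, n = 3) and 238 ± 5.76 CPM in Ikzf1-cko (-0.24 ± 0.07). Txk, a Tec family kinase, had 4 of 6 lower (-0.42 ± 0.07) and Treml2 2 of 2 lower (-0.74 ± 0.10). S1pr1, which directs egress from lymphoid organs, had 4 of 21 lower. The transcription factor genes Lef1 and Foxp1 had 2 of 13 and 6 of 27 lower, with 3 higher at Foxp1, whereas 0 of 11 Tcf7 regions passed FDR and its sum was 215 ± 8.94 against 212 ± 14.3 CPM. Bach2, a repressor that holds back effector differentiation, had 5 higher and 4 lower of 18. Bcl2 went the other way from the list, with 3 of 6 regions higher.

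**Figure D4:**
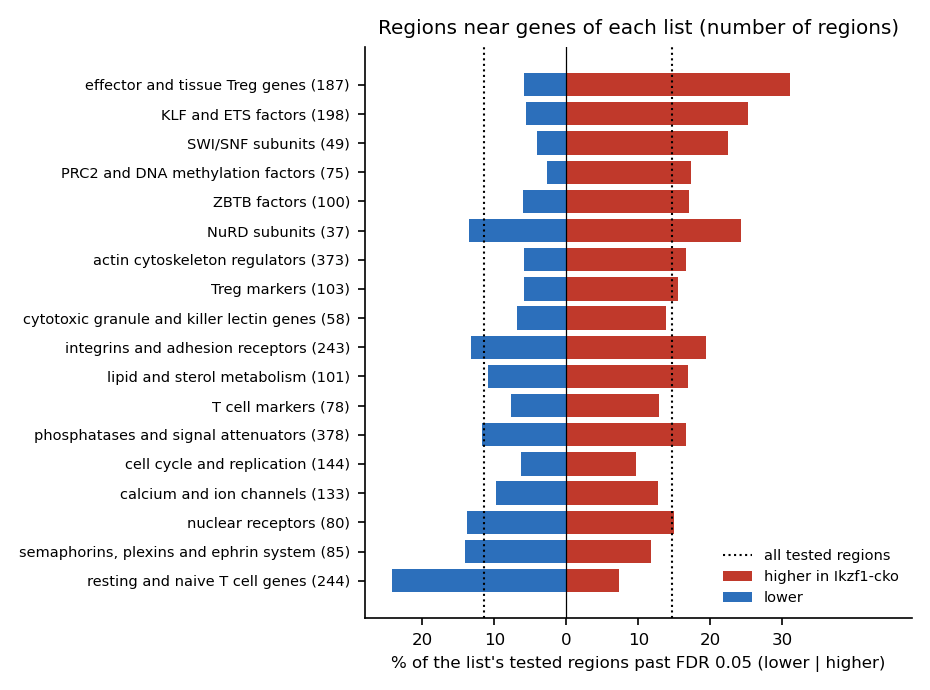
Percent of the tested regions of each gene list that rose (red, right) or fell (blue, left) at FDR below 0.05 in Ikzf1-cko, for the 18 lists with at least 30 regions, with the number of regions in brackets and the share over all tested regions as dotted lines (14.6% higher, 11.4% lower). Effector and tissue Treg genes reach 31.0% higher, and resting and naive T cell genes 24.2% lower.

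Other lists lay between these. KLF and ETS factor genes had 50 of 198 regions higher (25.3%) and 11 lower (5.56%), with Ets1, Elk3 (5 of 14 higher), Klf13 (5 of 12 higher, 1 lower) and Klf4 (3 of 4) among those that rose, and Etv1, whose start site fell from 40.1, 32.8 and 40.2 to 15.9, 17.3 and 18.7 FPKM (-1.13 ± 0.15, FDR = 3.17e-06). The count of 50 became 29 without WT replicate 1 and 30 without Ikzf1-cko replicate 2. Etv6 held an intronic region that rose (12.3, 13.2 and 14.03 against 29.6, 25.96 and 24.2 FPKM, 1.00 ± 0.11, FDR = 1.72e-07) and another that fell (70.0, 53.0 and 66.1 against 33.8, 33.1 and 22.6 FPKM, -1.06 ± 0.11, FDR = 8.68e-08), so regions of the same gene moved in opposite ways. Regulators of the actin cytoskeleton had 62 of 373 regions higher (16.6%), near the 14.6% of all tested regions, and 22 lower (5.90%, against 11.4%). That count of 62 ranged from 36 to 90 when single libraries were left out. The list count was 36 without WT replicate 1 or Ikzf1-cko replicate 2, 40 without Ikzf1-cko replicate 1 and 41 without WT replicate 2. In the same fits, 6427 to 12122 of all tested regions passed FDR alone, in both directions together. Lcp1, which bundles actin, had 4 of 7 regions higher, Wipf1 5 of 15 and Diap1 3 of 7, and an exon of Limk2 fell (-1.16 ± 0.16, FDR = 3.72e-06).

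The lists below stand beside 14.6% higher and 11.4% lower of all tested regions. Among the chromatin complexes that Ikaros is known to recruit, NuRD subunit genes had 9 of 37 regions higher (24.3%) and 5 lower (13.5%). Of these, 3 of 5 were higher at Mta3, and an intronic Mbd2 region was lower (-1.08 ± 0.16, FDR = 1.32e-05). SWI/SNF subunit genes had 11 of 49 higher (22.4%) and 2 lower (4.08%), one of the latter in an intron of Arid2 (-1.21 ± 0.15, FDR = 6.27e-07). Phosphatases and other attenuators of signals had 63 of 378 higher and 44 lower, near the shares of all tested regions. In this list Socs1 (4 of 10 higher) and Ptpn22 (3 of 10 higher) contrasted with Ptpn14 (4 of 7 lower), and an intron of Cblb, a ubiquitin ligase that limits T cell activation, fell from 14.1, 13.3 and 13.4 to 7.53, 6.04 and 4.89 FPKM (-1.12 ± 0.16, FDR = 4.74e-06). Integrin and adhesion receptor genes had 47 of 243 higher (19.3%) and 32 lower (13.2%). Beside Cd82, Itgav (6 of 15, with 1 lower) and Cd6 (3 of 6) had risen regions, and Cdhr3 2 of 5 lower (-1.30 ± 0.16, FDR = 1.01e-06, at its intronic region). PRC2 and DNA methylation factors had 13 higher and 2 lower of 75, ZBTB factors 17 and 6 of 100, lipid and sterol genes 17 and 11 of 101, calcium and ion channels 17 and 13 of 133, nuclear receptors 12 and 11 of 80, and semaphorins, plexins and the ephrin system 10 and 12 of 85. Cell cycle and replication genes had 14 higher and 9 lower of 144, both below the shares over all regions. The remaining named members past both thresholds were Ptpn13 (1.04), the start site of the calcium sensor gene Stim2 (1.02), Rhoh (1.01) and Nrp2 (1.10), all higher. Members close to 2-fold dropped below it when a library was left out: without WT replicate 1 the risen (0.97) and the fallen Etv6 region (-0.99) and the uncertain Klrg1 region (0.91), without WT replicate 2 the risen Etv6 region (1.00 rounded, under the threshold), and without WT replicate 3 Stim2 (0.91), Rhoh (0.90) and Mbd2 (-0.93). Without Ikzf1-cko replicate 1 these were Stim2 (0.94), Rhoh (0.98) and the risen Etv6 region (0.92). Without Ikzf1-cko replicate 2 they were Stim2 (0.96), Rhoh (0.94), Ptpn13 (0.97) and 2 Klrg1 regions (0.98 and 0.94), and without Ikzf1-cko replicate 3 Cblb (-0.99) and the fallen Etv6 region (-0.90).

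Genes of cytotoxic granules and killer lectins moved in both directions, with 8 of 58 regions higher (13.8%) and 4 lower (6.90%) against 14.6% and 11.4% of all tested regions, and a median of 0.16. Among their gene sums 4 were higher, with Klrg1 (0.57 ± 0.07) the largest, and 3 lower (Prf1, Klrc1 and Gzmb). The start site of Prf1, the pore-forming perforin, had 8.67, 7.88 and 7.24 FPKM in WT and 3.58, 3.54 and 3.85 in Ikzf1-cko (-1.10 ± 0.16, FDR = 5.50e-06), and the gene sums of Klrc1 (-0.81 ± 0.14), Cd8a (-0.55 ± 0.18) and Gzmb (-0.35 ± 0.08) were lower too. The summed start-site level of the CD8 T and NK cell markers was lower in the same libraries, as given above, and its part in these falls was not tested. In bulk libraries, fewer cells of a type and less openness per cell cannot be told apart. Over the 17 tested regions of the CD8 T and NK cell markers, 1 was higher and 2 were lower, with a median of 0.15. Of the Treg markers themselves, 16 of 103 regions were higher (15.5%) and 6 lower (5.83%), the first near the share of all tested regions, and the sums of Ctla4 (0.31), Tnfrsf4 (0.27) and Tnfrsf18 (0.24) were higher on the log2 scale.

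In the stimulated libraries, which were not used to call the regions, most of the differences found ex vivo were seen again. The methods describe the sorted cells as divided between the 2 conditions, so ex vivo and stimulated libraries may share animals. Every Ikzf1-cko library was again deeper, with 9221901 to 11465957 counted reads against 4808916 to 6047073 in WT. At least 3.6 CPM was reached by 71518 to 79365 regions in WT and by 45224 to 49029 in Ikzf1-cko libraries. The part of these gaps in the recurrence was not tested. Over all tested regions, 33.9% were higher and 10.3% lower at FDR alone after stimulation, with a median log2 fold change of 0.17. Of the 181 regions higher ex vivo, 180 had the same direction after stimulation and 158 (87.3%) passed FDR in that direction, with a median of 0.92 against 1.16 ex vivo. Of the 222 lower regions, 218 had the same direction and 183 (82.4%) passed FDR, with a median of -0.75 against -1.12. With TMM factors in the stimulated fit, which centre the fold changes, the counts past FDR were 140 and 199. Of the regions past FDR but under 2-fold ex vivo, 4248 of 5462 rises (77.8%) and 1522 of 4189 falls (36.3%) passed in the same direction, and with TMM factors 3090 (56.6%) and 2175 (51.9%). Among the named regions, 12 of the 12 largest falls, 10 of the 12 largest rises and 15 of the 21 list members past both thresholds passed in the same direction. Of the largest rises, Cd82 (0.33, FDR = 0.204) and Nfatc1 (0.42, FDR = 0.116) did not.

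**Figure D5:**
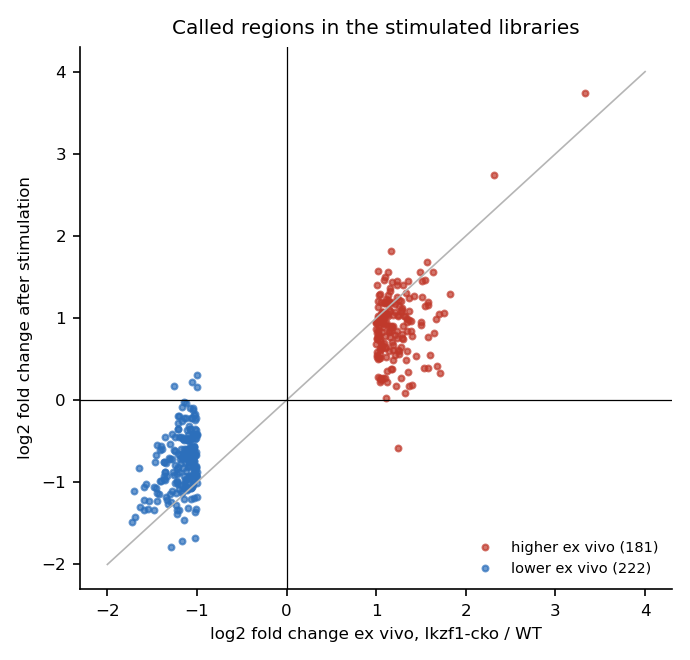
Log2 fold change after stimulation (Ikzf1-cko over WT, 3 libraries each, vertical axis) against the fold change ex vivo (horizontal axis) for the 181 regions called higher ex vivo (red) and the 222 called lower (blue), with the line of equal change in grey. Of the red points 180 lie above 0 and of the blue points 218 lie below 0, mostly nearer to 0 than ex vivo.

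The 5 called regions whose direction differed were looked up after their values were seen. A second region near Tnfsf11, 31.2 kb from its start, was higher ex vivo (4.57, 2.93 and 1.99 FPKM in WT against 6.91, 6.95 and 7.42, log2 fold change 1.24 ± 0.18, FDR = 8.61e-06) and lower after stimulation (5.30, 6.46 and 4.37 against 4.14, 2.98 and 3.76 FPKM, -0.58, FDR = 0.00666). It was the only called region past FDR in the opposite direction, and the difference between the conditions passed as well (interaction term over the 12 libraries, FDR = 9.68e-06). The other 4 were lower ex vivo and slightly higher after stimulation without passing FDR, in introns of Etv6 (0.23) and Ifnar2 (0.17), a receptor chain for type I interferon, and nearest to Jak1 (0.17) and Rgs13 (0.30). At the Etv6 region the stimulated values were 36.2, 42.0 and 37.4 FPKM in WT and 45.0, 43.3 and 46.8 in Ikzf1-cko, so the gap seen ex vivo was absent there.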

How the data were processed

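Groups and replicate numbers of the ATAC-seq libraries come from the labels. According to the methods and the submitters' processing notes, the authors mapped the paired reads (Bowtie2), dropped duplicates and blacklisted regions, called peaks per replicate with MACS2 and merged those present in at least 2 replicates. The methods print a human build, whereas the labels give mm9, which the coordinates match. The authors deposited a raw count of reads per region and library and an FPKM value equal to that count per region length and library total. A second deposited table holds the authors' own fold changes and p-values, which were not used. No column of per-library values was left unused.

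Counts were tested with edgeR 4.0.16 (glmQLFit and glmQLFTest, R 4.3.3, Benjamini-Hochberg adjustment), scaled by library totals, over regions with at least 3.6 CPM in all 6 ex vivo libraries. The background-bin normalization of the study needs reads that are not used here. Alternatives were TMM, loess offsets, DESeq2 1.42.0, limma 3.58.1, other filters, thinned counts, a replicate block and leaving out each library. Genes came from the mm9 annotation of protein-coding start sites, and motifs were counted on both strands. Named regions were the 12 largest rises and falls with no overlap between genotypes, 1 per nearest gene, beyond 5 Mb of Ikzf1, without mitochondrial matches and genes the study names, then the 6 genes with most changed regions (ties kept) and largest sums in each direction, and list members past both thresholds. The members, lists, motifs and alternatives were chosen with earlier results of these data known. Copies were found with blastn 2.17.0. The ex vivo fit was tested on simulated data, where it recovered 200 of 200 regions planted among 38602 at a log2 fold change of 2, with 0 false calls. The simulated spread between libraries was set alike for all regions. The planted change exceeded every called change outside the mitochondrial matches (1.83 at most for rises, -1.72 for falls). Recovery and false calls at changes near 2-fold were therefore not tested. Python 3.11.15, pandas 2.3.3, SciPy 1.17.1 and Matplotlib 3.10.9 were used.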

Additional observations from a re-analysis of the deposited data

Results flagged for a closer look

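For 21 of the regions described by name, 19 of them past both thresholds ex vivo, the difference between the genotypes itself differed between ex vivo and stimulated libraries, by an interaction term in edgeR's quasi-likelihood test over the 12 libraries with FDR below 0.05 under library totals and under TMM factors. That fit treated the 12 libraries as independent, although the methods describe the sorted cells as divided between the conditions. The values are the log2 fold change after stimulation minus that ex vivo. It was -1.38 at the intronic Cd82 region (0.33 after stimulation against 1.71 ex vivo), -1.26 at Nfatc1, -1.19 upstream of Slc28a3, -1.18 at the Lamb1 exon nearest Gm11053, -1.07 at Nrp2, -1.05 at Ifitm3 and -0.90 at the Klrg1 region 19.7 kb downstream. It was -0.83 upstream of Nfe2l2, -0.81 upstream of Tnfsf11, -0.70 upstream of Eif2b2 and -0.68 at Pla1a. At these regions, at Ifitm3 (edgeR, FDR = 0.0246) and at the Lamb1 exon (FDR = 0.0327) the rise remained past FDR after stimulation. Among regions lower ex vivo the interaction value was 1.29 in the Etv6 intron, 0.91 at Limk2, 0.87 near Satb1 and 0.86 at Arid2. It was 0.79 at the Trak1 exon nearest Cck and 0.79 at the Myo10 exon nearest Fam134b, with Satb1 and Fam134b under 2-fold ex vivo. At the regions looked up for their opposite direction it was -1.82 at the second Tnfsf11 region, 1.42 nearest Jak1, 1.30 nearest Rgs13 and 1.17 at Ifnar2. Apart from these last regions and Etv6, where the sign was opposite, the change was smaller after stimulation. Most of these regions were named for their size ex vivo, which favours a smaller value in libraries that had no part in the choice. Groups of 3 libraries were not tested for outlying samples.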

How the results depend on the processing

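With edgeR the 403 called regions stayed within 1.5 times that count under TMM, loess, GC, DESeq2, limma, thinning (484) and the 12-library fit. Leaving out each library gave 365 to 503 called regions, 6427 to 12122 at FDR alone and 350 to 478 genes. The filter moved the counts: with 3.6 CPM in at least 3 libraries 1432 regions and 629 genes were called, without a filter 4768 and 880 (15185 at FDR alone), and with 10 CPM in all libraries 48 and 133 (5338 at FDR alone). DESeq2 called 6076 regions at FDR alone. The start-site median was 0.0546 with TMM, 0.0164 with loess on abundance, 0.0417 with loess on GC content, 0.0656 with DESeq2, 0.0482 without a filter and 0.0861 to 0.13 without single libraries. The far intergenic median was -0.12 with TMM, -0.11 with DESeq2, -0.16 and -0.52 with the looser and no filter, -0.0045 at 10 CPM and -0.0996 to -0.0730 without single libraries. Filters change which regions enter, and for the other settings the cause was not tested.

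Motif shares counted over whole regions were higher in every set: Ikaros core 94.5% of rises and 78.8% of falls (87.0% of all), AP-1 48.6%, NF-kB 16.6% and NFAT 61.9% of rises, and TCF/LEF 20.3% of falls. For TCF/LEF the share of rises was then 18.8% and that of all regions 12.2%, so the directions hardly differed. Rises near effector and tissue Treg genes numbered 36 with DESeq2, 28 at 10 CPM and 39 to 69 without single libraries, and falls near resting genes 23 at 10 CPM and 43 to 60. Rises near KLF and ETS genes numbered 29 with DESeq2 and 29 to 59 without single libraries, and near actin regulator genes 32 with DESeq2, 34 at 10 CPM and 36 to 90. These list counts, and the 400 regions without those near Ikzf1 or of mitochondrial sequence, were added after seeing the data. Of the 45 named regions past both thresholds 0 changed sign under any alternative, and 3 could be tested at 10 CPM. With TMM 4, DESeq2 3, limma 2, the replicate block 3 and thinning 5 lost the call. All of these were list members near 2-fold (Prf1 at -0.82 and Rhoh at 0.79 with thinning). With loess on abundance 3 lost the call, and with loess on GC content 1.

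Same-numbered libraries did not deviate together (correlations -0.11, 0.05 and -0.12). With 3 libraries per group this cannot exclude that they were handled as pairs. The fit with the replicate block called 401 regions, 8813 at FDR alone and 373 genes. The WT libraries hold fewer reads, so low counts are less precise there. Thinned to the smallest library, 335 of the 403 called regions were called again.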
